A study of Homo sapiens with 12 samples.

Results

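The 32 genes described here act in homologous recombination and in the Fanconi pathway. They were taken from the count table by symbol, and no measured value entered the rule. The genes and the lists set beside them were, however, chosen with earlier results of these data known. All 32 names were found among the 60649 genes of the table, and all 32 were among the 21114 genes tested. The genes were grouped by role into the BRCA1, PALB2, and BRCA2 axis, the recombination mediators RAD51B, RAD51C, RAD51D, XRCC2, and XRCC3 with RAD54L, the Fanconi core complex with FANCM, the FANCD2 and FANCI pair, the kinases of damage signalling, the genes of end resection, the RecQ helicases, and PARP1.

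Gene expression was measured by bulk RNA sequencing in 12 libraries from a pair of established human cell lines of uterine leiomyosarcoma (uLMS), a malignant smooth muscle tumor. SK-UT-1B was derived from a primary tumor and has an epithelial morphology, whereas SK-LMS-1 was derived from a metastasis. Both lines carry the genotype label WT, and each is a single line that stands for its tumor. Cells were exposed for 72 h to DMSO, the vehicle, to MK-0752, an inhibitor of the gamma secretase that activates Notch receptors, or to MK-0752 together with gemcitabine and docetaxel (the combination), with each treatment given at its IC30, the concentration that lowers cell viability by 30%. For SK-UT-1B there were 2 vehicle libraries, with 4 as the first number of their names, and 2 combination libraries, with 3 as that number. SK-LMS-1 had 2 libraries after MK-0752, 2 after the combination, and 4 after DMSO, which the first number of their names divides into DMSO set 2 and DMSO set 4. The control of MK-0752 was DMSO set 2 and that of the combination DMSO set 4, as these shared that number. The SK-UT-1B groups did not share it, nor did the combination libraries of the lines, so whatever it stands for cannot be told apart from the combination in SK-UT-1B or from the line after the combination. MK-0752 alone was used at a higher concentration than within the combination, and neither gemcitabine nor docetaxel was sequenced without MK-0752. The labels do not say whether the libraries of a group came from separate cultures, so p-values measure only the spread between these libraries.

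Homologous recombination copies an intact sister chromatid to mend a chromosome break, and it works mainly in S and G2 phase, when that sister exists. The broken end is first resected to a single strand, BRCA1 and PALB2 then bring BRCA2, and BRCA2 starts the search for the sister sequence with the help of further mediators. The Fanconi pathway recognizes crosslinked DNA and stalled forks through a core complex that attaches ubiquitin to FANCD2 and FANCI, and it hands the break on to homologous recombination. Gemcitabine, a nucleoside analog, stalls replication forks, and docetaxel stabilizes microtubules during mitosis. Many genes of these pathways are transcribed at the entry into S phase by E2F factors. A subset of leiomyosarcomas is known for defects in homologous recombination.

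Between 25250057 and 40709885 reads were counted on genes in each library, and no repair gene was at 0 in any of them. The lowest count of a repair gene was 31 and the highest 14810. Expression is given as CPM, its count divided by the scaled depth of the library. The higher of the 2 libraries of a group exceeded the lower by a median of 1.27 times over the 192 pairs of gene and group, by more than 1.5 times in 50 pairs, and by more than 2 times in 17. The widest pair was RAD51D in DMSO set 4, at 7.83 and 1.89 CPM. Of the smooth muscle markers, CALD1, SMTN, and ACTA2 were detected in all 12 libraries. Of 10 smooth muscle markers tested between the lines after DMSO, 8 were called higher and 1, DES, lower in SK-LMS-1, against 21.5% and 19.5% of all genes. The summed level of the list over all libraries was 546 to 628 CPM in SK-LMS-1 and 85.9 to 124 CPM in SK-UT-1B. DES was at 0 in all 8 SK-LMS-1 libraries and had 50 to 282 counts in SK-UT-1B, and MYH11 had at most 5 counts in any library. Of 7 epithelial markers tested between the lines after DMSO, 4 were called higher and 0 lower in SK-LMS-1, against the same shares of all genes. Their list summed to 170 to 266 CPM in SK-LMS-1 libraries and to 0.637 to 3.58 CPM in SK-UT-1B. The epithelial keratin KRT8 had 2607 to 3998 counts in SK-LMS-1 and was at 0 in SK-UT-1B, while CDH1 had at most 3 counts in either line. ESRP1 went the other way, with up to 91 counts in SK-UT-1B and 0 in 7 of the 8 SK-LMS-1 libraries. Summed over 9 markers of immune and endothelial cells, the level was 3.94 to 12.1 CPM in SK-LMS-1 and 0.0265 to 2.01 CPM in SK-UT-1B, with KDR at 0 throughout. In bulk samples such as these, fewer cells of a kind and less RNA per cell cannot be told apart.

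The first question was whether the repair genes differed between the lines without drug. Of the genes that passed the test, most were lower in SK-LMS-1, and the kinases ATM and ATR were among the few that were higher. After DMSO, 15 of the 32 genes were lower and 4 were higher in SK-LMS-1, with SK-UT-1B as the reference, by edgeR's quasi-likelihood test at an adjusted p under 0.05 (Benjamini-Hochberg over all genes tested). At the same threshold, 41.0% of the 21114 genes tested were called, 19.5% as lower and 21.5% as higher. With an absolute log2FC of at least 1 as well, which is the rule for differential expression here, 12 repair genes were lower and 2 were higher, against 14.1% and 17.0% of all genes. The median log2FC was -0.62 over the repair genes and 0 over all genes tested. The genes took a larger share of the counts in SK-UT-1B, at 0.194% and 0.208% of all counts per DMSO library, than in SK-LMS-1, at 0.0975% to 0.113%. Genes with many counts weigh most in this share.

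**Figure D1:**
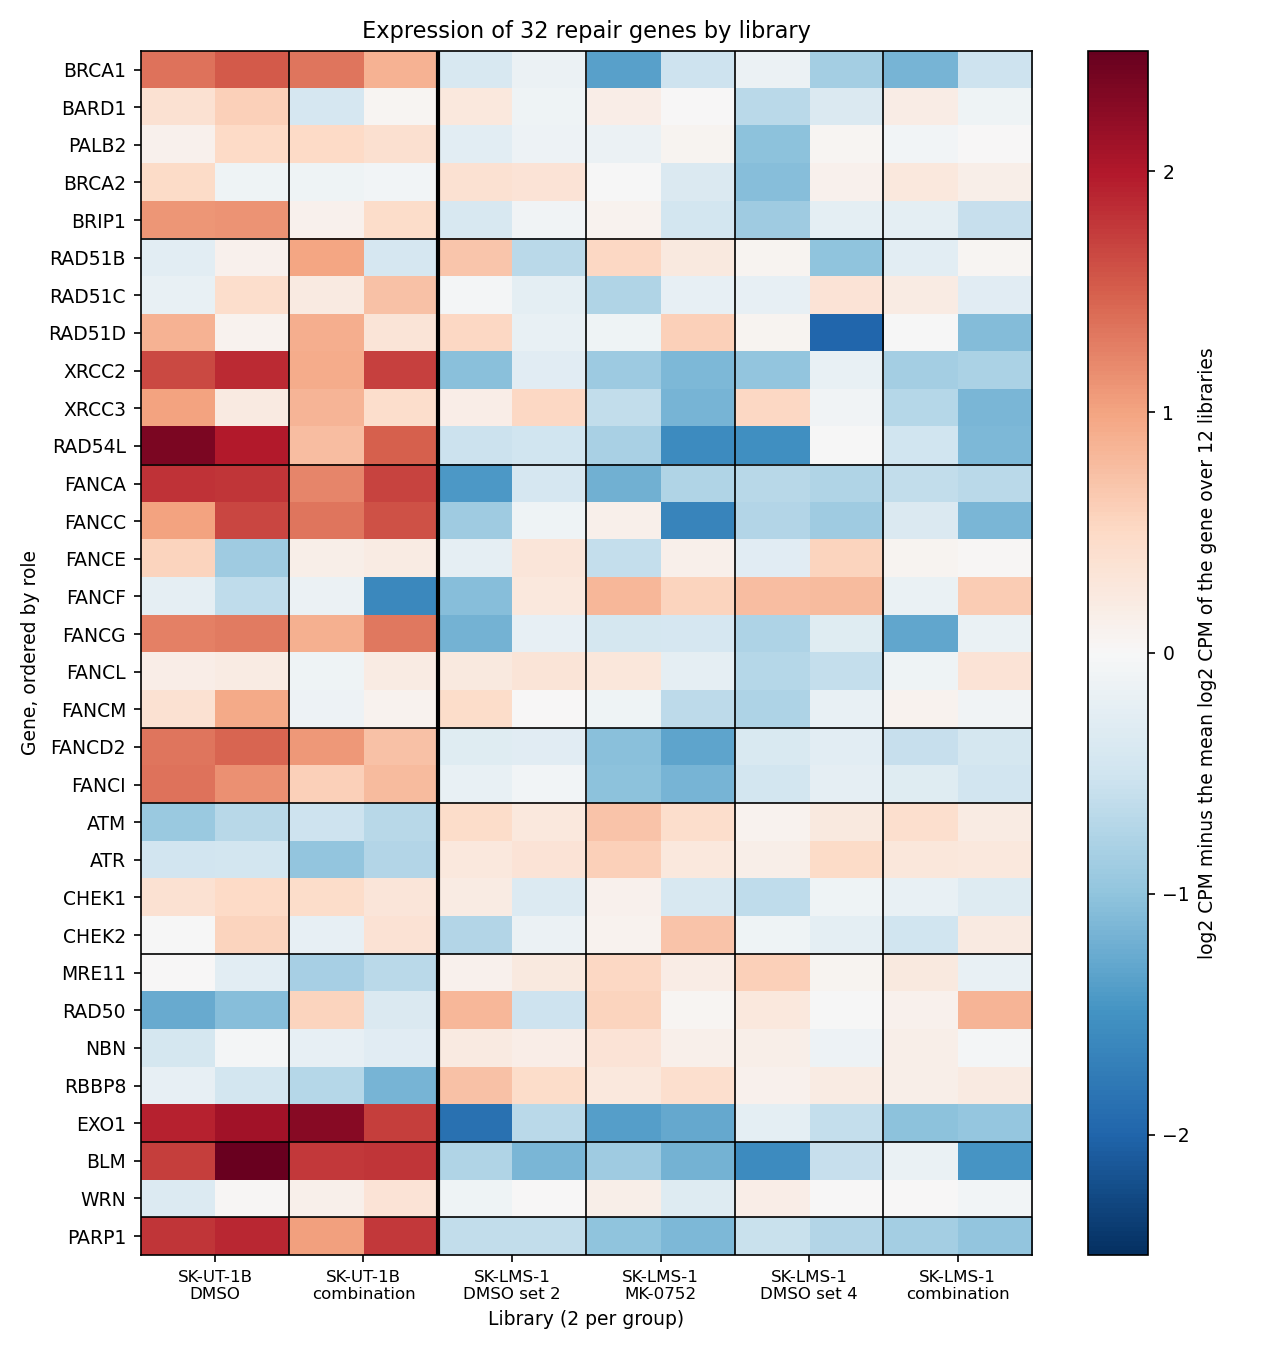
Expression of the 32 repair genes (rows, ordered by role) in the 12 libraries (columns, 2 per group) as log2 CPM minus the mean of the gene over all libraries. BLM, EXO1, RAD54L, and PARP1 were above their mean in all 4 SK-UT-1B libraries and below it in all 8 SK-LMS-1 libraries, and ATM and ATR had the opposite order.

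In the BRCA1, PALB2, and BRCA2 axis, all 5 members had a log2FC below 0, and BRCA1, BRIP1, and BARD1 passed the test. BRCA1 (ENSG00000012048.23, hg38 chr17:43044295-43170245, minus strand), the ubiquitin ligase that directs breaks to homologous recombination, was at 65.6 and 74.4 CPM in SK-UT-1B and at 19.5, 23.4, 23.3, and 14.3 CPM in SK-LMS-1. All 4 SK-LMS-1 libraries lay below both SK-UT-1B libraries, with a log2FC of -1.80 (SE 0.26, edgeR adjusted p = 1.26e-05), or 3.49 times lower. BRIP1, the helicase bound by BRCA1, was at 98.6 and 101 CPM in SK-UT-1B and at 35.1, 43.4, 25.0, and 39.0 CPM in SK-LMS-1. The groups did not overlap, with a log2FC of -1.49 (SE 0.21, edgeR adjusted p = 9.23e-06). BARD1, the obligate partner of BRCA1, was at 63.4 and 73.7 CPM in SK-UT-1B and at 58.3, 45.5, 30.4, and 37.7 CPM in SK-LMS-1. The lines did not overlap, with a log2FC of -0.71 (SE 0.20, edgeR adjusted p = 0.00658), and this call was lost without library 4-2 of SK-UT-1B (adjusted p = 0.0892). PALB2, which bridges BRCA1 and BRCA2, had a log2FC of -0.61 (edgeR adjusted p = 0.0773), and BRCA2, the central mediator of the strand exchange step, had -0.22 (edgeR adjusted p = 0.564). BRCA2 libraries of the lines overlapped, at 26.3 and 39.7 CPM in SK-UT-1B and 13.5 to 36.6 CPM in SK-LMS-1.

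Among the mediators RAD51B, RAD51C, RAD51D, XRCC2, and XRCC3, which assemble into complexes with each other, only XRCC2 was called. It was at 41.3 and 47.6 CPM in SK-UT-1B and at 6.33, 10.8, 6.61, and 11.5 CPM in SK-LMS-1, a log2FC of -2.33 (SE 0.31, edgeR adjusted p = 3.39e-06). RAD54L, a motor protein that remodels the template during strand exchange, was at 59.3 and 45.9 CPM in SK-UT-1B and at 7.99, 8.26, 4.02, and 11.6 CPM in SK-LMS-1. Its highest SK-LMS-1 library was still below its lowest SK-UT-1B library, and the log2FC was -2.72 (SE 0.36, edgeR adjusted p = 4.44e-06). RAD54L shares 813 of its 4078 exon bases with LRRC41 on the other strand. RAD51B, RAD51C, RAD51D, and XRCC3 had log2FC of -0.04, -0.19, -0.73, and -0.37, none with an adjusted p under 0.05, and the libraries of the lines overlapped for each of the 4. XRCC3 was at 21.0 and 12.2 CPM in SK-UT-1B and at 11.7, 14.9, 14.9, and 9.90 CPM in SK-LMS-1. XRCC3 shares 5756 of its 7507 exon bases with KLC1 on the other strand, and the strand setting of the counts is not given in the sources used here, so its values are uncertain.

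In the Fanconi core complex, the ubiquitin ligase of the pathway, FANCA, FANCC, and FANCG were lower in SK-LMS-1, whereas FANCE, FANCF, and FANCL were not called. FANCA was at 58.1 and 57.3 CPM in SK-UT-1B and at 6.13, 12.4, 10.1, and 9.85 CPM in SK-LMS-1 (log2FC -2.58, SE 0.27, edgeR adjusted p = 1.88e-07), and 2409 of its 12316 exon bases are shared with ZNF276 on the other strand. ZNF276 had the same direction, with 420 and 800 counts in SK-UT-1B and 108 to 198 in SK-LMS-1 after DMSO. As the strand setting is not given, the FANCA values are uncertain as well. FANCC was at 23.7 and 37.5 CPM in SK-UT-1B and at 6.33, 10.9, 7.14, and 6.40 CPM in SK-LMS-1 (log2FC -2.00, SE 0.40, edgeR adjusted p = 0.000443). FANCG was at 26.3 and 27.2 CPM in SK-UT-1B and at 4.87, 9.49, 6.49, and 8.91 CPM in SK-LMS-1 (log2FC -1.85, SE 0.36, edgeR adjusted p = 0.000281). The lines did not overlap for any of these 3 genes. FANCM, the translocase that anchors the complex to DNA, was at 30.8 and 45.7 CPM in SK-UT-1B and at 32.7, 23.8, 14.0, and 20.8 CPM in SK-LMS-1. It had a log2FC of -0.79 (SE 0.27, edgeR adjusted p = 0.0225) although its libraries overlapped. This call was lost without library 2-3 or 4-1 of SK-LMS-1 or 4-2 of SK-UT-1B (adjusted p = 0.0620, 0.0514, and 0.396). FANCE, FANCF, and FANCL, the subunit that carries the ligase activity, had log2FC of 0.12, 0.67, and -0.37. FANCF had the lowest counts of the repair genes, 31 to 225 per library, and the widest SE, 0.74.

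FANCD2 and FANCI, the pair that the core complex modifies, were both lower in SK-LMS-1. FANCI was at 150 and 128 CPM in SK-UT-1B and at 51.8, 55.6, 42.8, and 50.3 CPM in SK-LMS-1 (log2FC -1.48, SE 0.16, edgeR adjusted p = 2.13e-07). FANCD2 was at 91.5 and 99.2 CPM in SK-UT-1B and at 29.2, 29.8, 27.9, and 30.1 CPM in SK-LMS-1 (log2FC -1.70, SE 0.18, edgeR adjusted p = 2.39e-07). The 4 FANCD2 values in SK-LMS-1 lay close together, and all were far below those of SK-UT-1B.

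The kinases of damage signalling went both ways. ATM, which is activated by chromosome breaks, was at 103 and 122 CPM in SK-UT-1B and at 269, 235, 208, and 231 CPM in SK-LMS-1, and every SK-LMS-1 library was higher (log2FC 1.07, SE 0.15, edgeR adjusted p = 6.58e-06). ATR, which is activated by single-stranded DNA at stalled forks, was at 54.1 and 54.9 CPM in SK-UT-1B and at 90.3, 94.8, 82.6, and 105 CPM in SK-LMS-1 (log2FC 0.77, SE 0.17, edgeR adjusted p = 0.000995). ATR shares 2048 of its 27234 exon bases with a pseudogene on the other strand. CHEK1, the kinase downstream of ATR, was lower in SK-LMS-1, at 56.1, 38.5, 31.2, and 45.1 CPM against 63.6 and 68.9 CPM in SK-UT-1B, with a log2FC of -0.64 (SE 0.21, edgeR adjusted p = 0.0190), and CHEK2, downstream of ATM, had -0.60 (SE 0.37, edgeR adjusted p = 0.206). The CHEK1 call was lost without library 2-3 of SK-LMS-1 or 4-2 of SK-UT-1B (adjusted p = 0.0611 and 0.0976). The kinases that sense the damage and the checkpoint kinases below them had opposite signs.

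In the MRN complex, which binds broken ends, MRE11 and NBN had log2FC of 0.39 and 0.35 and were not called (edgeR adjusted p = 0.152 and 0.104). RAD50 was at 3.01 and 3.42 CPM in SK-UT-1B and at 12.8, 5.04, 8.68, and 7.10 CPM in SK-LMS-1 (log2FC 1.38, SE 0.51, edgeR adjusted p = 0.0366). This call did not hold when any of 4 libraries was left out, both SK-UT-1B libraries among them, with adjusted p of 0.0540 to 0.244, nor in a fit on the libraries of the comparison alone (0.0796). RAD50 shares 8124 of its 10565 exon bases on the same strand with AC116366.7 (ENSG00000283782.2), which was listed at 0 in all 12 libraries, so its counts may cover only part of the transcript and are uncertain. RBBP8, which starts resection together with MRE11, was at 49.7 and 41.5 CPM in SK-UT-1B and at 94.9, 78.4, 61.6, and 66.2 CPM in SK-LMS-1. All 4 SK-LMS-1 libraries were higher (log2FC 0.71, SE 0.19, edgeR adjusted p = 0.00422), although the call was lost without library 4-2 of SK-UT-1B (adjusted p = 0.0883). EXO1, the nuclease that extends resection, had the opposite direction, at 69.0 and 77.4 CPM in SK-UT-1B and 4.96, 11.3, 15.2, and 12.02 CPM in SK-LMS-1 (log2FC -2.80, SE 0.27, edgeR adjusted p = 3.94e-08).

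BLM, the RecQ helicase that dissolves recombination intermediates, had the largest difference of the repair genes. It was at 47.2 and 79.1 CPM in SK-UT-1B and at 8.51, 6.45, 4.83, and 9.56 CPM in SK-LMS-1, with a log2FC of -3.10 (SE 0.34, edgeR adjusted p = 6.09e-07), or 8.58 times lower. WRN, the other RecQ helicase here, had a log2FC of 0.16 (edgeR adjusted p = 0.523). PARP1 (hg38 chr1:226360210-226408154, minus strand), which marks breaks with poly(ADP-ribose), was at 370 and 393 CPM in SK-UT-1B and at 69.6, 69.9, 72.7, and 64.6 CPM in SK-LMS-1. The log2FC was -2.46 (SE 0.16, edgeR adjusted p = 1.67e-10), or 5.51 times lower, and the libraries within each line lay close together.

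**Figure D2:**
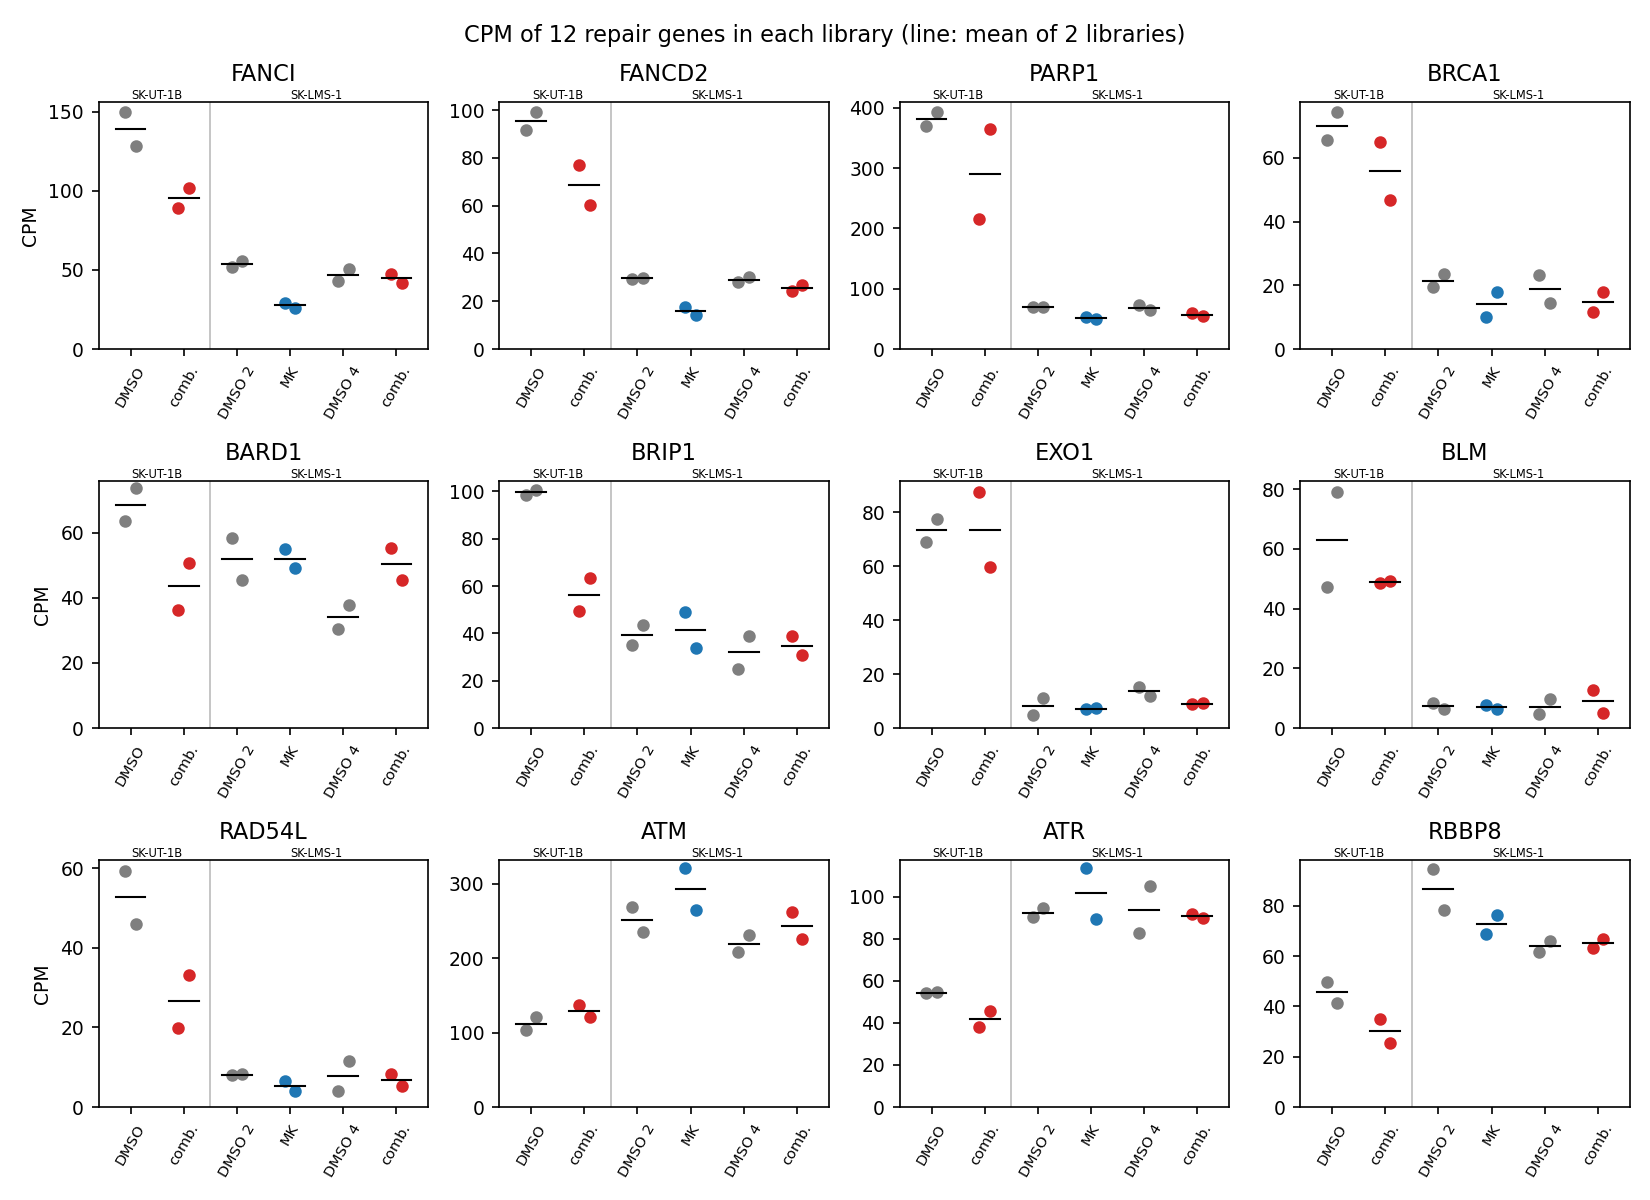
CPM of 12 repair genes in each library (points) with the mean of the 2 libraries of a group (line), from SK-UT-1B after DMSO to SK-LMS-1 after the combination. PARP1 lay at 216 CPM or more in SK-UT-1B and at 72.7 CPM or less in SK-LMS-1, and FANCI and FANCD2 were lowest after MK-0752.

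Levels of single genes were ranked against each other only per kb of exon. After DMSO in SK-UT-1B, PARP1 was the highest at 20.7 CPM per kb, followed by EXO1 at 17.7, RAD54L at 12.9, and CHEK1 at 11.8. In SK-LMS-1, RBBP8 led at 14.8 CPM per kb over the 4 libraries, followed by WRN at 7.66, CHEK1 at 7.63, MRE11 at 6.86, and ATM at 6.01. PARP1, EXO1, and RAD54L were thus near the top in SK-UT-1B only, while CHEK1 was among the leading genes in both lines. At the low end were RAD50 and FANCL in SK-UT-1B, at 0.304 and 0.375 CPM per kb, and FANCL and FANCC in SK-LMS-1, at 0.306 and 0.417. These lengths join all annotated exons of a gene, which lowers the value of genes with long rare exons. The joined exons span 37977 bases in FANCL and 18465 in FANCC, so the low places of these genes depend on the lengths used. The RAD50 value is uncertain through the overlap described above.

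Promoters of the repair genes were searched for letters that resemble E2F sites on either strand, which were TTGGCGC with its variants TTCGCGC and TTCCCGC as well as the run TTGCCGC, within 250 bases before to 50 bases after each RefSeq start (GRCh38.p14). The table held 40 windows for 29 of the 32 genes, and FANCI, NBN, and WRN had no entry. A match lay in 20 of the 40 windows, against 13.0% of the 35116 windows of all genes. Per gene, 17 of the 29 held a match in at least 1 window. No share per gene was taken over all genes or over other genes called between the lines. Of the 15 genes called lower in SK-LMS-1 under DMSO, 14 had a window and 12 of these held a match, while FANCM and CHEK1 held none. None of the 4 genes called higher (ATM, ATR, RAD50, and RBBP8) held a match, and 5 of the 11 genes with a window that were not called did. The CCAAT letters were found in 42.5% of the repair gene windows against 34.6% of all windows, and the letters TTTGAA or TTTAAA, which resemble the CHR element of genes expressed in G2 and mitosis, in 7 of the 40 windows against 8424 of the 35116. A match is a description of the letters and does not show that a factor binds there. A selection of 7 matches upstream of the start, 1 for each of 7 genes that were lower in SK-LMS-1, is shown because these genes shared both the direction between the lines and the letters, which are in capitals; runs are 5′ to 3′ on the strand of the gene, 60 bases long, or 30 where GENCODE annotates untranslated exon there.
BRCA1, chr17:43125394-43125423, minus strand: caacggaaaagcGCGGGAAttacagataaa
RAD54L, chr1:46247612-46247671, plus strand: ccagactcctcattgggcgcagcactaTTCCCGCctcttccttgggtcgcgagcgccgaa
FANCA, chr16:89816802-89816831, minus strand: gactacaccgcgGCGGCAAagccaaacgca
FANCC, chr9:95317722-95317781, minus strand: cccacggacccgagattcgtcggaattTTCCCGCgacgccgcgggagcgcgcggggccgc
FANCG, chr9:35079994-35080053, minus strand: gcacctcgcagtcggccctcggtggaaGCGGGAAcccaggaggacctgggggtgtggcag
BLM, chr15:90717245-90717304, plus strand: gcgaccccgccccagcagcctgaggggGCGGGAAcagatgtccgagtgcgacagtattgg
PARP1, chr1:226408094-226408123, minus strand: gttccgtgggcgTTCCCGCggccaggcatc

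The letters TTCCCGC, or GCGGGAA when read on the other strand, occurred in 6 of these 7 runs, and FANCA held GCGGCAA, the reverse complement of TTGCCGC. The first base of the match lay at base -18 from the start in PARP1, -45 in FANCC, -47 in BRCA1, -74 in BLM, -84 in FANCG, and -172 in FANCA, and at -49 or -124 in RAD54L, depending on the start used. FANCC had further matches at -172 from this start and at -115 from another start, and FANCD2 had a match at -2, which are not shown.

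Other repair genes were described from lists that hold none of the 32 genes. Of 51 further genes of homologous recombination and the Fanconi pathway that were tested, 17 were lower and 7 were higher in SK-LMS-1 after DMSO, with a median log2FC of -0.41. The lowest were RAD54B, a relative of RAD54L, at -2.57 and DNA2, a resection nuclease, at -1.96, and the highest were SFR1, a recombination cofactor, at 2.52 and BABAM2, a subunit of the BRCA1-A complex, at 2.00. Of 17 genes of nonhomologous end joining, the pathway that rejoins ends without a template, 4 were lower and 1 was higher, with a median of -0.14. PRKDC, the kinase of that pathway, had a log2FC of -1.59 and XRCC6, a subunit of the Ku ring, -1.04, while APLF, a scaffold protein, was at 1.64. The background for these counts is the same 19.5% lower and 21.5% higher among all genes.

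Genes of the cell cycle were lower in SK-LMS-1 as well. Of 30 S phase and E2F target genes, all 30 were called lower in SK-LMS-1 after DMSO, with a median log2FC of -1.86, and so were 18 of 24 genes of G2 and mitosis, with a median of -1.20. Summed CPM of the S phase genes was 4647 and 4757 in SK-UT-1B and 1411 to 1534 in SK-LMS-1, and summed CPM of the repair genes was 1783 and 1905 in SK-UT-1B and 1012 to 1206 in SK-LMS-1. The ratio of the repair sum to the S phase sum was 0.384 and 0.400 in SK-UT-1B and 0.690 to 0.855 in SK-LMS-1. Genes with more counts weigh more in these sums. PARP1 alone held 370 and 393 CPM of the repair sum in SK-UT-1B and 64.6 to 72.7 CPM in SK-LMS-1. ATM, with the opposite direction, held a mean of 112 CPM in SK-UT-1B and 236 CPM in SK-LMS-1. The part of the cell cycle genes in the differences of the repair genes was not tested.

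**Figure D3:**
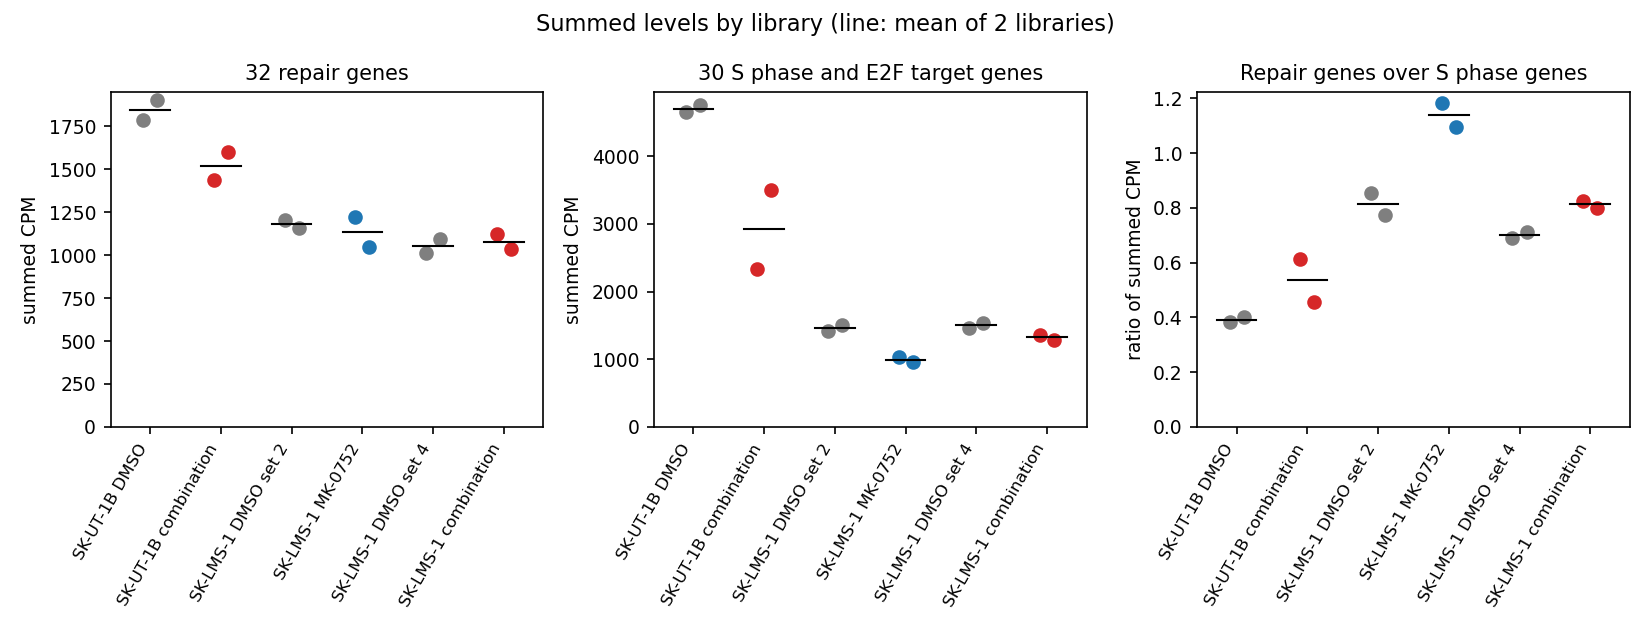
Summed CPM of the 32 repair genes, summed CPM of 30 S phase and E2F target genes, and the ratio of both sums, in each library (points) with the mean of the group (line). Genes with more counts weigh more in both sums. The S phase sum was 4647 and 4757 in SK-UT-1B after DMSO and between 957 and 1534 in all SK-LMS-1 libraries, and the ratio was highest after MK-0752, at 1.18 and 1.09.

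The second question was whether the lines also differed after the combination. Of the repair genes, 13 were lower and 4 were higher in SK-LMS-1, with SK-UT-1B as the reference, by edgeR's quasi-likelihood test, where 13.6% of all genes were called lower and 19.3% higher, together 32.9%. There were 12 genes lower in both comparisons (BRCA1, BRIP1, XRCC2, RAD54L, FANCA, FANCC, FANCG, FANCD2, FANCI, EXO1, BLM, and PARP1), and 3 higher in both (ATM, ATR, and RBBP8). These comparisons share no library. EXO1 had the lowest log2FC, at -3.02 (SE 0.34, edgeR adjusted p = 6.70e-07), with 87.5 and 59.6 CPM in SK-UT-1B and 8.86 and 9.23 CPM in SK-LMS-1. PARP1 was at 216 and 365 CPM in SK-UT-1B and at 59.0 and 54.0 CPM in SK-LMS-1 (log2FC -2.36, SE 0.20, edgeR adjusted p = 1.36e-08). The PARP1 libraries of SK-UT-1B were farther apart than after DMSO, but neither overlapped with SK-LMS-1.

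The other genes that were lower in both comparisons kept their libraries apart after the combination. In the BRCA1 axis, BRCA1 was at 64.9 and 46.7 CPM in SK-UT-1B and at 11.6 and 17.97 CPM in SK-LMS-1 (log2FC -1.92), and BRIP1 was at 49.5 and 63.2 CPM and at 38.8 and 30.9 CPM (log2FC -0.69). XRCC2 was at 25.0 and 42.7 CPM in SK-UT-1B and at 7.24 and 7.51 CPM in SK-LMS-1 (log2FC -2.20), and RAD54L was at 19.9 and 33.1 CPM and at 8.26 and 5.38 CPM (log2FC -1.95). The SK-UT-1B libraries of these 4 genes differed from each other, but the lower of them was above both SK-LMS-1 libraries. In the core complex, FANCA was at 38.2 and 53.5 CPM in SK-UT-1B and at 10.8 and 10.3 CPM in SK-LMS-1 (log2FC -2.12), FANCC at 29.8 and 35.6 CPM and at 9.19 and 5.38 CPM (log2FC -2.16), and FANCG at 20.5 and 27.6 CPM and at 4.48 and 9.81 CPM (log2FC -1.75). FANCD2 was at 76.97 and 60.3 CPM in SK-UT-1B and at 24.2 and 26.6 CPM in SK-LMS-1 (log2FC -1.44), and FANCI at 88.9 and 102 CPM and at 47.5 and 41.7 CPM (log2FC -1.10). BLM was at 48.7 and 49.3 CPM in SK-UT-1B and at 12.8 and 5.13 CPM in SK-LMS-1 (log2FC -2.44). Over 9 alternative analyses, the log2FC ranged from -3.27 to -1.94 for BLM and from -2.43 to -1.31 for FANCG. ATM had the opposite order, at 137 and 122 CPM in SK-UT-1B and at 262 and 225 CPM in SK-LMS-1 (log2FC 0.91, SE 0.16, edgeR adjusted p = 0.000170). Among these lower genes, the edgeR adjusted p ranged from 3.86e-05 for FANCD2 to 0.0440 for BRIP1.

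BARD1, FANCM, CHEK1, and RAD50 were called after DMSO but not after the combination, and XRCC3 and MRE11 after the combination but not after DMSO. The CHEK1 difference had nearly the same size in both, with a log2FC of -0.64 after DMSO and -0.63 after the combination (edgeR adjusted p = 0.0588, and below 0.05 in 6 of 9 alternative analyses). BARD1 had a log2FC of 0.21 after the combination (edgeR adjusted p = 0.528) and -0.71 after DMSO, and XRCC3 had -1.56 (SE 0.44, edgeR adjusted p = 0.00908) and -0.37. XRCC3 was at 18.8 and 14.2 CPM in SK-UT-1B and at 6.40 and 4.76 CPM in SK-LMS-1. ATR was at 38.0 and 45.5 CPM in SK-UT-1B and at 91.7 and 89.9 CPM in SK-LMS-1 (log2FC 1.12, SE 0.19, edgeR adjusted p = 0.000115). RBBP8 was at 35.0 and 25.6 CPM in SK-UT-1B and at 63.3 and 67.0 CPM in SK-LMS-1 (log2FC 1.10, SE 0.21, edgeR adjusted p = 0.000333). Each SK-LMS-1 library of ATR and RBBP8 was above each SK-UT-1B library. MRE11 had a log2FC of 0.79 (SE 0.25, edgeR adjusted p = 0.0160) and CPM of 24.6 and 27.3 in SK-UT-1B and 51.8 and 38.2 in SK-LMS-1. RAD50 had a log2FC of 0.36 (edgeR adjusted p = 0.673), with 10.5 and 5.57 CPM in SK-UT-1B and 7.75 and 13.0 CPM in SK-LMS-1. Calls that leaving out a library ended were those of BRIP1 (4-2 of SK-LMS-1, adjusted p = 0.291, or 3-3 of SK-UT-1B, 0.190), XRCC3 (4-2 of SK-LMS-1, 0.130, or 3-1 of SK-UT-1B, 0.0579), FANCG (4-1 of SK-LMS-1, 0.101), and MRE11 (4-1 of SK-LMS-1, 0.313, or 3-1 of SK-UT-1B, 0.0649). A fit on the 4 libraries of the comparison alone also ended those of BRIP1 (adjusted p = 0.0609) and MRE11 (0.0501). Of the 32 genes, 11 were called in neither comparison of the lines (PALB2, BRCA2, RAD51B, RAD51C, RAD51D, FANCE, FANCF, FANCL, CHEK2, NBN, and WRN). Among the 51 other genes of homologous recombination, 10 were lower and 4 were higher, and 25 of the 30 S phase genes were lower.

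**Figure D4:**
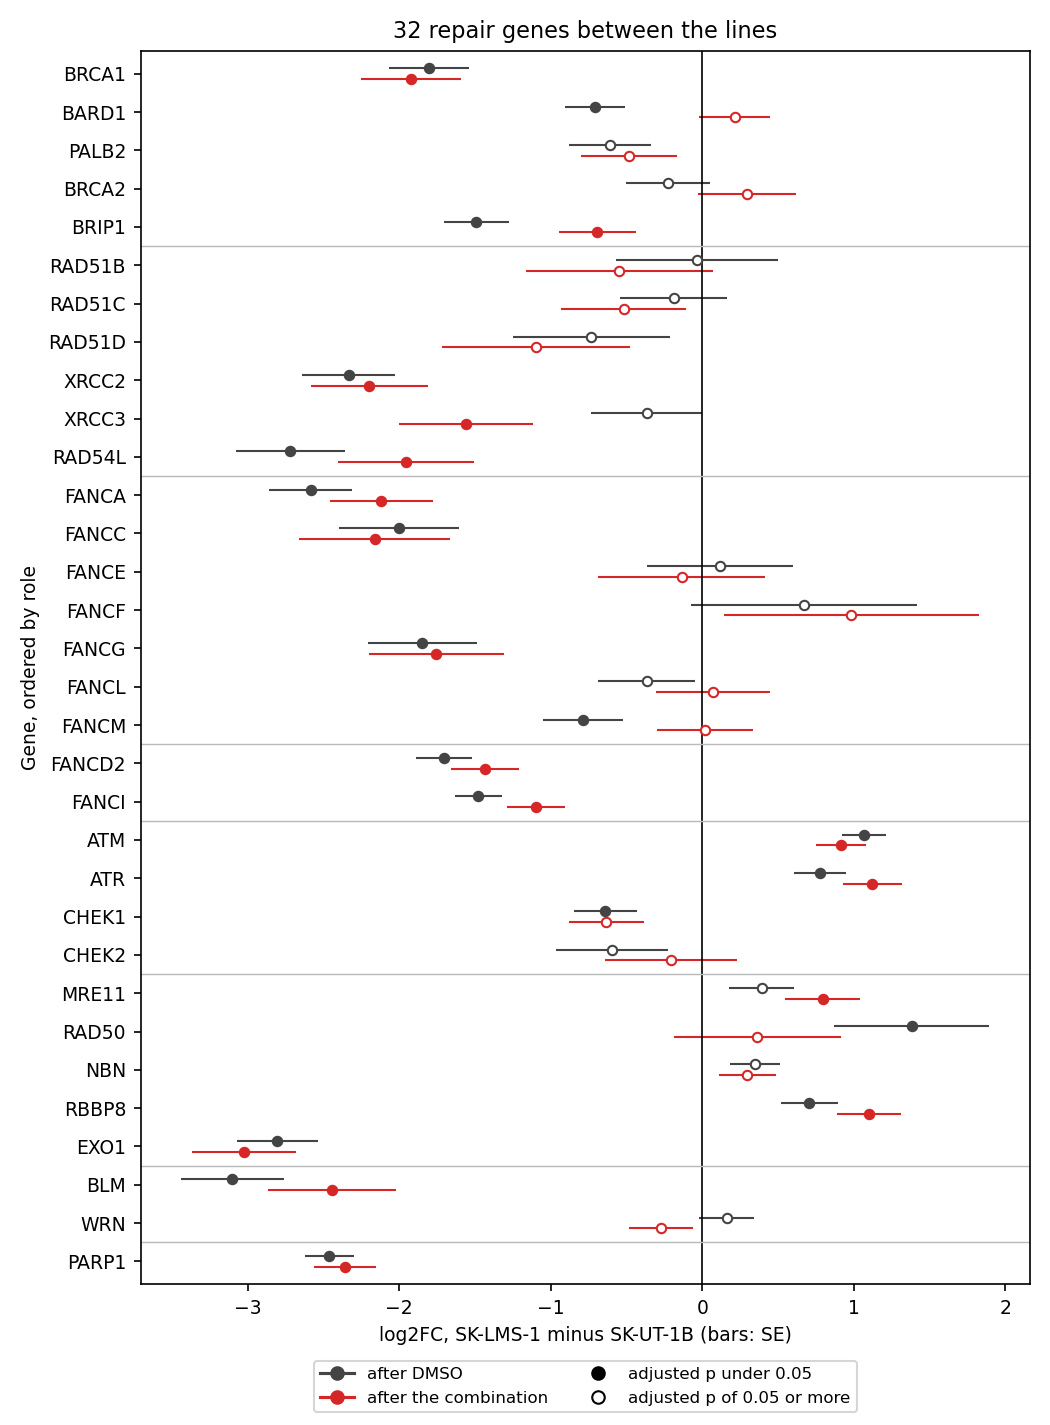
log2FC of SK-LMS-1 minus SK-UT-1B with its SE (bars) for the 32 repair genes after DMSO (dark) and after the combination (red), where filled points have an edgeR adjusted p under 0.05. BLM, EXO1, and PARP1 lay at -2.36 or below in both, and ATM, ATR, and RBBP8 lay at 0.71 or above in both.

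The third question was whether the combination changed the repair genes in SK-UT-1B. No repair gene was called by edgeR's quasi-likelihood test, and 0.715% of all genes were (0.464% higher and 0.251% lower). At an unadjusted p under 0.05, 8 repair genes were lower and 1 was higher, against 5.08% and 5.41% of all genes (10.5% together). DESeq2 called 1 repair gene, FANCI, as lower, and of 30051 genes it called 420 higher and 363 lower. The log2FC was below 0 for 22 of the 32 genes, with a median of -0.24, and the median over all genes was 0. The libraries did not overlap for 12 genes that were lower after the combination and 3 that were higher, against 15.4% and 16.7% of all genes.

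The lowest log2FC values were those of RAD54L, BRIP1, and FANCM. BRIP1 was at 98.6 and 101 CPM after DMSO and at 49.5 and 63.2 CPM after the combination (log2FC -0.82, SE 0.26, edgeR adjusted p = 0.178). RAD54L was at 59.3 and 45.9 CPM after DMSO and at 19.9 and 33.1 CPM after the combination (log2FC -0.99, SE 0.43, edgeR adjusted p = 0.411). FANCM was at 30.8 and 45.7 CPM after DMSO and at 21.6 and 25.2 CPM after the combination (log2FC -0.71, SE 0.32, edgeR adjusted p = 0.422). In each of these genes, both combination libraries were below both DMSO libraries. FANCI was at 150 and 128 CPM and then at 88.9 and 102 CPM, with a log2FC of -0.54 (SE 0.19, edgeR adjusted p = 0.238), and FANCD2 had -0.47 (SE 0.22, edgeR adjusted p = 0.454). BARD1 had a log2FC of -0.66, MRE11 -0.62, and RBBP8 -0.59, each with non-overlapping libraries and an edgeR adjusted p of 0.253 to 0.321. PARP1 had a log2FC of -0.40 (edgeR adjusted p = 0.497), with 216 CPM in the combination library named 3-1 and 365 CPM in 3-3, against 370 and 393 CPM after DMSO.

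The highest log2FC values were those of RAD50, RAD51B, and WRN. RAD50, with the overlap described above, was at 3.01 and 3.42 CPM after DMSO and at 10.5 and 5.57 CPM after the combination (log2FC 1.32, SE 0.56, edgeR adjusted p = 0.384). RAD51B was at 5.57 and 7.24 CPM after DMSO and at 13.3 and 5.00 CPM after the combination, so that its groups overlapped (log2FC 0.52, SE 0.62, edgeR adjusted p = 0.958). WRN was at 49.3 and 63.3 CPM after DMSO and at 67.7 and 79.0 CPM after the combination (log2FC 0.38, SE 0.21, edgeR adjusted p = 0.579). ATM had a log2FC of 0.21 and ATR -0.38, and neither was called.

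The combination libraries of SK-UT-1B were unlike each other in the cell cycle genes. Summed CPM of the S phase genes was 2338 in library 3-1 and 3502 in library 3-3, both below the 4647 and 4757 after DMSO, and summed CPM of the repair genes was 1436 and 1598, below 1783 and 1905. Of the 30 S phase genes, 2 were called lower and 29 had a log2FC below 0, with a median of -0.65, and of the 24 genes of G2 and mitosis, 2 were called lower and all 24 were below 0, with a median of -0.79. RRM1 and RRM2, subunits of ribonucleotide reductase, were the called S phase genes, at -0.89 and -0.90. Without library 3-3, BRIP1 at -1.01 (edgeR adjusted p = 0.0108), BARD1 at -0.91, and PARP1 at -0.82 were called lower, in a fit that called 870 genes higher and 927 lower of 24568 tested, against 98 and 53 of 21114 with all libraries. The remaining combination library is then assumed to vary like the other groups. Of the 51 other genes of homologous recombination, 0 were called by edgeR's quasi-likelihood test, 4 were lower and 0 higher at an unadjusted p under 0.05, and the median log2FC was -0.07.

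The fourth question was whether MK-0752 alone changed the repair genes in SK-LMS-1. FANCI was lower after MK-0752 and was the only repair gene called, and FANCD2, its partner, had a log2FC of nearly the same size. FANCI (hg38 chr15:89243945-89317261, plus strand) was at 51.8 and 55.6 CPM in DMSO set 2 and at 28.9 and 26.1 CPM after MK-0752. Both treated libraries were below both DMSO libraries, and below those of DMSO set 4 at 42.8 and 50.3 CPM, with a log2FC of -0.96 (SE 0.19, edgeR adjusted p = 0.0283). FANCD2 was at 29.2 and 29.8 CPM in DMSO set 2 and at 17.6 and 14.4 CPM after MK-0752 (log2FC -0.89, SE 0.22, edgeR adjusted p = 0.131). Over all genes, 0.365% were called, 0.279% as lower and 0.0853% as higher, and the median log2FC was -0.10 over the repair genes and 0 over all genes. At an unadjusted p under 0.05, 4 repair genes were lower (FANCI, FANCD2, XRCC3, and PARP1) and 0 were higher, against 3.94% and 2.48% of all genes. FANCI did not reach the differential expression rule, since its log2FC was above -1.

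The FANCI call rests on all 4 libraries of the comparison, since leaving out any of them gave edgeR adjusted p of 0.0610 to 0.230, with log2FC from -1.04 to -0.89. With the 4 SK-LMS-1 DMSO libraries as 1 control group, FANCI and FANCD2 were both called, and FANCD2 had a log2FC of -0.87 (edgeR adjusted p = 0.0451). Of 21114 genes, 44 were called higher and 82 lower in that fit. DESeq2 also called both (FANCD2 adjusted p = 0.00366), and of 30051 genes it called 107 higher and 198 lower.

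XRCC3, with the overlap described above, was at 11.7 and 14.9 CPM in DMSO set 2 and at 6.84 and 4.70 CPM after MK-0752 (log2FC -1.21, SE 0.44, edgeR adjusted p = 0.495). PARP1 was at 69.6 and 69.9 CPM and then at 52.8 and 49.0 CPM (log2FC -0.46, SE 0.20, edgeR adjusted p = 0.696). FANCF, CHEK2, and ATM had the highest log2FC. FANCF was at 1.60 and 4.06 CPM in DMSO set 2 and at 6.002 and 5.00 CPM after MK-0752 (log2FC 0.96, SE 0.84, edgeR adjusted p = 0.875). CHEK2 was at 6.85 and 10.3 CPM and then at 12.2 and 18.6 CPM (log2FC 0.84, SE 0.44, edgeR adjusted p = 0.806), and ATM was at 269 and 235 CPM and then at 321 and 265 CPM (log2FC 0.22, SE 0.16, edgeR adjusted p = 0.806). The treated libraries were above DMSO set 2 for FANCF and CHEK2 and overlapped with it for ATM. BRCA1 had a log2FC of -0.62 and BRCA2 -0.54, and BARD1, RAD50, and NBN were within 0.04 of 0.

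Cell cycle genes were lower in the same MK-0752 libraries. Summed CPM of the S phase genes was 1033 and 957 after MK-0752 against 1411 and 1501 in DMSO set 2, and that of the G2 and mitosis genes was 1220 and 1144 against 1974 and 1989. Of these lists, 1 S phase gene was called lower (RRM2, log2FC -1.17) and 3 genes of G2 and mitosis, with medians of -0.43 and -0.74. The sum of the repair genes was 1222 and 1047 CPM after MK-0752 against 1206 and 1159 CPM, so that its ratio to the S phase sum was 1.18 and 1.09 after MK-0752 and 0.855 and 0.772 in DMSO set 2. ATM alone held a mean of 293 CPM of the repair sum after MK-0752 and 252 CPM in DMSO set 2. The ratio of the summed CPM of FANCD2 and FANCI to the S phase sum was 0.0450 and 0.0424 after MK-0752 and 0.0574 and 0.0569 in DMSO set 2. The libraries of DMSO set 4 lay between these, at 0.0483 and 0.0524. The part of the cell cycle genes in the FANCI call was not tested. Of 51 other genes of homologous recombination and the Fanconi pathway, 0 were called by edgeR's quasi-likelihood test, 6 were lower and 0 higher at an unadjusted p under 0.05, and the median log2FC was -0.26.

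**Figure D5:**
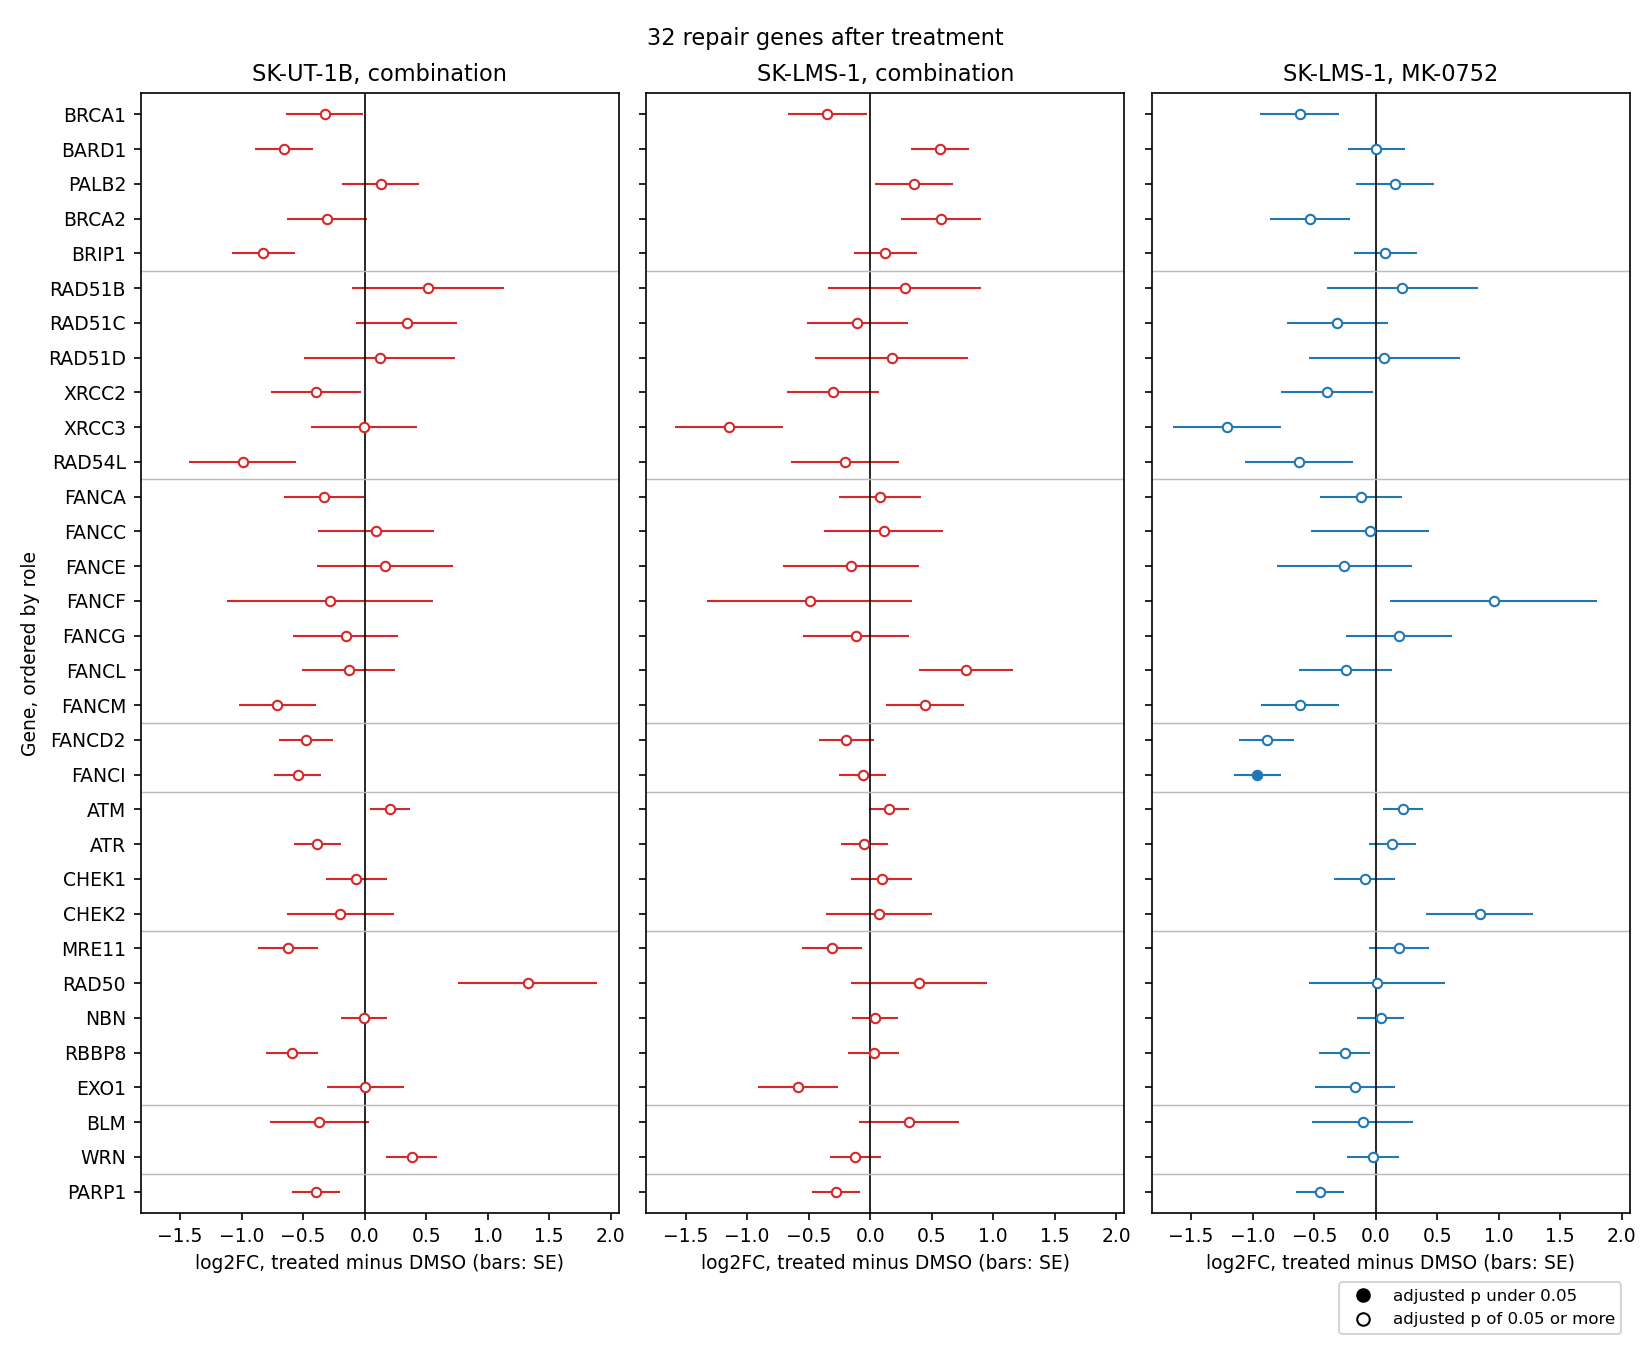
log2FC of treated minus DMSO libraries with its SE (bars) for the 32 repair genes in SK-UT-1B after the combination, SK-LMS-1 after the combination, and SK-LMS-1 after MK-0752, where filled points have an edgeR adjusted p under 0.05. FANCI after MK-0752, at -0.96, is the only filled point, and the medians of the 3 panels are -0.24, 0.03, and -0.10.

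The fifth question was whether the combination changed the repair genes in SK-LMS-1. By edgeR's quasi-likelihood test, 0 repair genes were called, and 0.0237% of all genes were. At an unadjusted p under 0.05, XRCC3 was lower and BARD1 was higher, against 1.16% and 3.17% of all genes, and DESeq2 called 0 repair genes. XRCC3 was at 14.9 and 9.90 CPM in DMSO set 4 and at 6.40 and 4.76 CPM after the combination (log2FC -1.15, SE 0.44, edgeR adjusted p = 0.907). XRCC3 was thus below its DMSO libraries in both SK-LMS-1 treatments, with log2FC of -1.21 and -1.15, and neither passed the adjustment. EXO1 was at 15.2 and 12.02 CPM and then at 8.86 and 9.23 CPM (log2FC -0.59, SE 0.32, edgeR adjusted p = 0.907), and FANCF was at 5.76 and 5.83 CPM and then at 3.00 and 5.25 CPM (log2FC -0.49, SE 0.83, edgeR adjusted p = 1.00).

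The highest log2FC values were those of FANCL, BRCA2, and BARD1. FANCL was at 7.63 and 8.27 CPM in DMSO set 4 and at 11.6 and 15.8 CPM after the combination (log2FC 0.78, SE 0.38), and BRCA2 was at 13.5 and 30.3 CPM and then at 34.0 and 31.5 CPM (log2FC 0.58, SE 0.32). BARD1 was at 30.4 and 37.7 CPM and then at 55.4 and 45.5 CPM (log2FC 0.57, SE 0.23), and the edgeR adjusted p was 0.907 for each of these 3 genes. DMSO set 2 differed from DMSO set 4 in the same genes. It had 14.9 and 15.7 CPM of FANCL, 36.6 and 35.9 CPM of BRCA2, and 58.3 and 45.5 CPM of BARD1, which are close to the values after the combination. With DMSO set 2 as the control, the log2FC was -0.17 for FANCL, -0.15 for BRCA2, -0.04 for BARD1, 0.16 for EXO1, and 0.54 for FANCF, each with the opposite sign. Between the DMSO sets themselves, 0 repair genes and 0 of all genes tested were called by edgeR's quasi-likelihood test and 6 repair genes had an unadjusted p under 0.05, 5 of them lower in set 4 (BARD1, BRCA2, FANCL, FANCM, and RBBP8) and EXO1 higher, against 3.53% and 2.14% of all genes, while DESeq2 called 0 repair genes. FANCI and FANCD2 had log2FC of -0.06 and -0.19 after the combination, and the S phase sum was 1361 and 1291 CPM against 1465 and 1534 CPM in DMSO set 4.

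The effects were then compared with each other. The effect of the combination in SK-UT-1B minus that in SK-LMS-1 was called for 0 repair genes by edgeR's quasi-likelihood test, where 0.232% of all genes were called, and 3 repair genes were lower at an unadjusted p under 0.05, against 4.45% of all genes. DESeq2 called 1, BARD1, and of 30051 genes it called 110 higher and 109 lower. The 3 genes were BARD1 at -1.22 (SE 0.33, edgeR adjusted p = 0.247), FANCM at -1.15 (SE 0.45, edgeR adjusted p = 0.568), and BRIP1 at -0.94 (SE 0.36, edgeR adjusted p = 0.551). BARD1 had a log2FC of -0.66 in SK-UT-1B and 0.57 in SK-LMS-1, and its difference passed the threshold in 5 of 14 alternative analyses, with adjusted p from 0.00293 to 0.588. DMSO set 4, in which BARD1 was low, is the control of the SK-LMS-1 effect.

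In SK-LMS-1, the effect of MK-0752 minus that of the combination was also called for 0 repair genes by edgeR's quasi-likelihood test and by DESeq2, where 0.0379% of all genes were called by edgeR. DESeq2 called 26 of 30051 genes higher and 57 lower. At an unadjusted p under 0.05, 4 repair genes were lower, against 3.62% of all genes, namely FANCI at -0.90 (SE 0.27, edgeR adjusted p = 0.699), BRCA2 at -1.11, FANCM at -1.06, and FANCD2 at -0.69. With all 4 DMSO libraries as the control of both treatments, FANCI was at -0.70 and FANCD2 at -0.67, while BRCA2 was at -0.39 and FANCM at -0.36. In that fit 0 repair genes were called by edgeR's quasi-likelihood test, and of 21114 genes 2 were called higher and 13 lower. BRCA2 and FANCM were among the genes lower in DMSO set 4 at an unadjusted p under 0.05. MK-0752 was given at different concentrations in these treatments, so no comparison at a matched dose could be made. The FANCI values after MK-0752, 28.9 and 26.1 CPM, stood below those after the combination, 47.5 and 41.7 CPM, but the test of the difference between the effects did not pass the adjustment. The SE of this difference had a median of 0.46 over the repair genes, against 0.27 in the comparison of the lines after DMSO and 0.32 in each treatment comparison.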

How the data were processed

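RNA of 12 libraries was sequenced as single-end reads. Per the labels and the submitters' processing notes, the authors depleted ribosomal RNA, made strand-specific libraries, trimmed with Trim Galore 0.3.7, filtered ribosomal reads with SortMeRNA, and aligned to hg38 with STAR 2.7.9a. The raw gene counts that STAR gave were deposited. The annotation, the strand setting, and any removal of duplicate reads are not given in the sources used here. The use of molecular identifiers is likewise not given, so depth bounds only counting error.

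Line, drug, and the first number of the DMSO titles in SK-LMS-1 put the libraries into 6 groups of 2. Genes were tested with edgeR 4.0.16 in R 4.3.3 (TMM, filterByExpr, robust quasi-likelihood fit over all 12 libraries), with Benjamini-Hochberg adjustment over 21114 genes. A gene was called at an adjusted p under 0.05 and differentially expressed with an absolute log2FC of at least 1 as well. The scripts were tested on simulated data. Values in every library are given at least between lines for genes differentially expressed in either comparison, and after a treatment for called genes. Where a treatment had fewer than 3 called genes, they are given for 3 genes at either end of the log2FC order whose mean is at least 100 counts. Some further genes are given in the same way, such as BARD1, FANCM, CHEK1, and MRE11 between the lines and FANCI and PARP1 in SK-UT-1B after the combination. Other lists are given by counts and at most 2 genes in each direction. The genes and lists were chosen with earlier results of these data known. Exon lengths and overlaps are from GENCODE v44, and promoter sequences from RefSeq. Alternatives were DESeq2 1.42.0, its size factors in edgeR, dropping only genes under 1 count, keeping genes whose mean is at least 50 counts, fitting a comparison on its own libraries, pooling the DMSO sets as control, blocking on replicate number, and leaving out each library in turn. A further alternative, the combination set against DMSO set 2, was chosen after seeing the data.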

Additional observations from a re-analysis of the deposited data

How the results depend on the processing

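Between the lines, alternatives were tallied for the 17 genes differentially expressed in either comparison. For each treatment, they were tallied for the 3 genes at either end of the log2FC order. The tally leaves out other genes, such as BARD1, FANCM, CHEK1, and MRE11 between the lines and FANCI in SK-UT-1B after the combination. Among the tallied values, the direction and side of the threshold held in 497. Another 16 lost the threshold, 4 passed it, and 9 changed sign. When the combination in SK-LMS-1 was set against DMSO set 2, the log2FC reversed for BARD1 (-0.041), BRCA2 (-0.15), EXO1 (0.16), FANCF (0.54), and FANCL (-0.17). When a library was left out, RAD50 between the lines after the combination ranged from -0.064 to 0.88 (-0.064 without SK-LMS-1 combination library 2 and -0.02 without SK-UT-1B combination library 3), XRCC3 between the lines after DMSO from -0.70 to 0.034 (0.034 without SK-UT-1B DMSO library 1), and RAD51B in SK-UT-1B after the combination from -0.39 to 1.05 (-0.39 without combination library 1).

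Counts of called repair genes moved as follows. After MK-0752, the 1 lower gene became 2 with DESeq2 and with all 4 DMSO libraries as the control, and 0 when any of the 4 libraries of the comparison was left out (range 0 to 0). In SK-UT-1B after the combination, 0 lower genes became 1 with DESeq2, 1 with no filter beyond 1 count, and 0 to 3 when a library was left out (3 without combination library 3). The difference of the combination effects went from 0 lower genes to 1 with DESeq2, 1 with no filter, and 0 to 3 when a library was left out, with 3 without DMSO set 4 library 2. The MK-0752 effect minus the combination effect had 0 to 1 lower genes when a library was left out, with 1, BRCA2, without DMSO set 4 library 2. The DMSO sets had 0 to 1 in either direction, with BRCA2 lower without set 4 library 2 and EXO1 higher without set 2 library 3. A group reduced to 1 library was assumed to vary like the others. Between the lines after DMSO, the 4 higher genes became 2 to 4 (2 without SK-UT-1B DMSO library 2, when RAD50 and RBBP8 were not called) and the 15 lower genes 12 to 16 when a library was left out. For SK-LMS-1 after the combination and DMSO set 4, the replicate number did not pair the libraries (r = -0.0113 over 2 pairs), and with a replicate block 0 repair genes were called, as without it. The other treatment comparisons share only 1 number between their groups, and pairing was neither checked nor fitted there. Calls over all genes moved more. They went from 98 higher and 53 lower in SK-UT-1B after the combination to 420 and 363 with DESeq2, 378 and 380 with no filter, 870 and 927 without combination library 3, and 0 and 0 when only its 4 libraries were fitted, from 18 and 59 after MK-0752 to 107 and 198 with DESeq2, and from 3 and 2 in SK-LMS-1 after the combination to 50 and 19. The DMSO sets differed in 0 genes by edgeR and in 27 and 56 by DESeq2. Differences of less than about 0.6 in log2FC were at or below 2 SE for a typical repair gene in a treatment comparison.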
